A study of Mus musculus with 4 samples.

Results

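CD8 T cells of the small intestinal lamina propria (SILP) were chosen by their transcripts in 2 gene expression libraries, 1 from WT and 1 from A20ZF7 mice. A barcode was kept with at least 500 unique molecular identifiers (UMIs, counted molecules), 200 to 2500 genes and at most 15% mitochondrial UMIs. It was taken as a CD8 T cell with 2 or more UMIs of the coreceptor genes *Cd8a* and *Cd8b1* together, at least 1 UMI of *Cd3e*, *Cd3d*, *Cd3g*, *Trac* or *Trbc2*, no UMI of *Foxp3* or *Trdc*, and at most 1 UMI of the stromal genes *Col1a1*, *Col1a2*, *Col3a1*, *Dcn* and *Des*. This selection gave 294 of 22087 filtered WT barcodes and 477 of 36876 filtered A20ZF7 barcodes, or 771 of 58963 in all. Of WT barcodes with 2 or more CD8 UMIs, 431 in number, 384 also had a T cell gene UMI, 376 had no *Foxp3*, 357 no *Trdc*, and 294 met the stromal limit. The same steps in A20ZF7 went from 805 to 705, 666, 653 and 477.

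The study asked how zinc finger 7 of A20, the protein encoded by *Tnfaip3*, restrains lymphocytes of the gut. A20ZF7 mice carry knock-in point mutations that take away the binding of this zinc finger to linear ubiquitin, in every cell of the body and not in T cells alone. WT mice carry no such mutation, and mice of both genotypes were 12 weeks old, with no treatment named. For each genotype, lamina propria cells of 2 mice were enriched for T cells and innate lymphoid cells by negative selection, pooled, and 60000 cells were collected for a 5′ single-cell kit, so that the enrichment shapes every share of cells below. With 1 library per genotype, genotype and library cannot be told apart, no test between them is possible, and the 95% intervals given in parentheses hold counting error and nothing else.

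CD8 T cells recognize peptides presented on MHC class I molecules, and the CD8 coreceptor, a dimer of α and β chains or of α chains alone, binds to MHC class I beside the T cell receptor. On activation they release granzymes and perforin from granules, and cytokines and chemokines such as interferon-γ, CCL3, CCL4, CCL5 and XCL1. In the gut wall many of them are tissue-resident memory cells, which stay in place through molecules such as CD69, CD103 (*Itgae*) and CD49a (*Itga1*) and lack the lymph node homing receptor CCR7. A20 is a ubiquitin-editing protein induced by NF-κB that restrains NF-κB signaling.

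Surface protein was read in the WT library through antibodies that carry short DNA barcodes, and each WT mouse had an antibody mixture, a hashtag, of its own. The barcodes that carry the results on CD8 and CD4 protein and on the 2 WT mice are shown 5′ to 3′ as listed with the antibody counts.
CD8a antibody: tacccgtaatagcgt
CD4 antibody: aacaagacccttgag
hashtag 7, WT mouse 1: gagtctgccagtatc
hashtag 8, WT mouse 2: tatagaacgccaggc
The antibody matrices of the 2 genotypes held identical values in all 3 files compared. At filtered WT barcodes they gave 7534556 UMIs for hashtag 7 and 7813418 for hashtag 8, against 339 and 282 for hashtags 9 and 10 of the A20ZF7 mice. Antibodies and hashtags were therefore used for WT alone, and the A20ZF7 mice were not separated.

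Depth was low. The matrices held 35289432 UMIs over 576003 barcodes in WT and 54587004 over 612069 in A20ZF7. WT CD8 T cells held 405988 UMIs with a median of 909 per cell and a median of 577 genes, and A20ZF7 CD8 T cells held 742798 with medians of 1209 UMIs and 743 genes. Levels are given as counts per 1000000 UMIs of the population (CPM), and a gene with 3 UMIs, the floor used where a count is 0, has 7.39 CPM in WT and 4.04 CPM in A20ZF7. The libraries shared 1159 filtered barcode sequences. No CD8 T cell barcode was in both, while 16 WT members occurred among all filtered A20ZF7 barcodes and 11 A20ZF7 members among filtered WT barcodes.

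Both coreceptor genes lie side by side on mouse chromosome 6, in mm10 at chr6:71373427-71379173 on the plus strand for *Cd8a* and chr6:71322788-71337494 on the plus strand for *Cd8b1*. UMIs of both chains were found in 55.8% of WT members (49.9% to 61.5%) and 48.6% of A20ZF7 members (44.1% to 53.2%). *Cd8a* alone was found in 25.5% and 22.4%, and *Cd8b1* alone in 18.7% and 28.9%. Exactly 2 CD8 UMIs, the lowest number allowed, were held by 67.3% of WT and 70.6% of A20ZF7 members, so most members stood at the limit. Just inside the limit, WT members with 2 CD8 UMIs (198 cells) had 11638 CPM of *Ccl5* and 35.1 CPM of *Cd4*. Just outside it, 580 WT barcodes with 1 CD8 UMI had 9238 CPM of *Ccl5* and 45.9 CPM of *Cd4*. In A20ZF7, the 337 cells inside had 10876 CPM of *Ccl5* and 81.1 CPM of *Cd4*, and the 1197 outside had 10572 and 110 CPM. Farther inside, the 140 A20ZF7 members with 3 or more CD8 UMIs had 8293 CPM of *Ccl5*, 76.5 CPM of *Gzmk* and 106 CPM of *Cd4*, so that *Ccl5* and *Gzmk* (97.4 CPM outside) were under the barcodes just outside the limit. The 96 such WT members had 10836, 93.6 and 6.69 CPM, with *Gzmk* at 103 CPM outside. *Eomes* in A20ZF7 had 106 CPM just outside the limit, 91.8 CPM with 2 CD8 UMIs and 76.5 CPM with 3 or more. In WT it had 48.8, 58.5 and 53.5 CPM.

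Members were set beside 2 reference populations from the same libraries, which the same quality limits define. Other T cells had 2 or more T cell gene UMIs and no CD8, *Foxp3* or *Trdc* UMI, with the same stromal limit (3687 in WT with a median of 823 UMIs, 9545 in A20ZF7 with a median of 974). Stromal barcodes had 5 or more UMIs of the stromal genes (7192 in WT with a median of 1170.5 UMIs, 11858 in A20ZF7 with a median of 1161) and should lack T cell transcripts, so they serve as the background for T cell genes. The 10 T cell receptor complex genes summed to 569 CPM in WT stromal barcodes and 1511 CPM in A20ZF7 stromal barcodes, against 4091 and 3904 CPM in CD8 T cells. The background of T cell transcripts was therefore higher in the A20ZF7 library. For some lists and genes below the ratio was also taken with the stromal level of each library taken off gene by gene, with a remainder below 0 set to 0. This treats all transcripts of stromal barcodes as background, which they are not for genes that stromal cells express themselves, so for those genes it says nothing about CD8 T cells. Among T cell genes with levels like or higher in A20ZF7, *Nkg7*, *Il22*, *Ccr9*, *Ccr6* and *Cd247* would be lower in A20ZF7 by their levels in members less those in stromal barcodes.

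The label was set beside the marker genes *Ccl5*, *Gzmk* and *Eomes*, which the rule did not use. Members and markers were chosen with earlier results of these data known, so these levels describe members and are no independent check. *Ccl5* (chr11:83525778-83530518, minus strand), a chemokine of memory and effector CD8 T cells, had 11343 CPM in WT (11017 to 11675) and 9922 CPM in A20ZF7 (9697 to 10151). With every cell thinned to 500 UMIs, *Ccl5* was found in 92.9% of WT and 82.6% of A20ZF7 members, against 37.6% and 38.9% of other T cells and 9.96% and 26.1% of stromal barcodes. Without thinning it was found in 95.9% and 91.8% of members. *Gzmk*, a granzyme of memory CD8 T cells, had 111 CPM in WT (80.9 to 148) and 110 CPM in A20ZF7 (87.8 to 137), against 32.6 and 46.4 CPM in other T cells and 6.47 and 25.3 CPM in stromal barcodes. *Eomes*, a transcription factor of memory CD8 T cells, had 56.7 CPM (35.9 to 85.0) and 86.2 CPM (66.4 to 110), against 11.2 and 47.2 CPM in other T cells. A20ZF7 barcodes with 1 CD8 UMI had 106 CPM of *Eomes*, more than members. After thinning *Gzmk* was found in 7.82% of WT and 6.29% of A20ZF7 members and *Eomes* in 4.76% and 4.40%, so neither marked more than a small part of the cells at this depth.

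Over all genes outside the rule, the 10 that stood highest over other T cells were *Ccl4*, *Ccl5*, *Cd7*, *Ccl3*, *Nkg7*, *Tyrobp*, *Gzmk*, *Gzmb*, *Jaml* and *H2-Ab1*. Of 1254 genes compared, 5 (0.399%) were at least 2-fold higher than in other T cells in both genotypes with 20 CPM added, namely *Ccl4*, *Ccl5*, *Cd7*, *Ccl3* and *Nkg7*. The members were picked by CD8 transcripts that other T cells lack, so these values describe the population and test nothing. *Ccl4*, an inflammatory chemokine gene, stood 2.83-fold over other T cells in WT and 3.31-fold in A20ZF7. *Ccl5* stood 3.86-fold and 2.73-fold over them, and *Nkg7*, a granule membrane protein, 2.25-fold and 2.70-fold. *Cd7* is a surface receptor of T and NK cells, *Tyrobp* an adaptor of activating receptors, and *Jaml* an adhesion molecule that binds to epithelial partners. *H2-Ab1*, a class II MHC gene of antigen-presenting cells, had 143 CPM in WT members and 202 CPM in A20ZF7 members, and the list of macrophage and dendritic cell genes had 108 and 175 CPM in them.

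**Figure D1:**
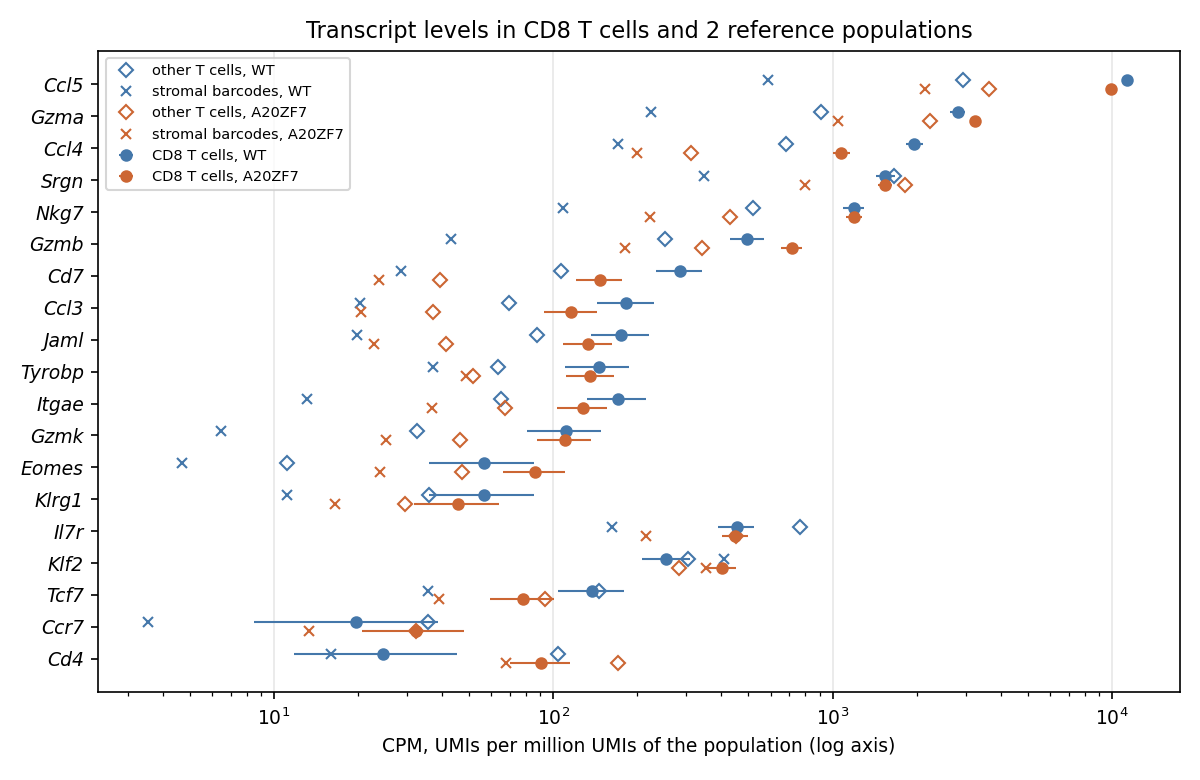
Level of 19 genes (rows) in CPM on a log axis, in WT (blue) and A20ZF7 (orange). Filled circles are CD8 T cells with 95% Poisson intervals, open diamonds other T cells and crosses stromal barcodes; *Ccl5*, *Ccl4*, *Cd7* and *Nkg7* lie to the right of the diamonds in both genotypes, while *Ccr7* and *Cd4* are low.

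*Ccr7*, the lymph node homing receptor gene, had 19.7 CPM in WT members (8.51 to 38.8) and 32.3 CPM in A20ZF7 members (20.7 to 48.1). Except for *Zfp683*, the genes of tissue retention named here were read at higher levels. *Cd69* had 409 and 403 CPM, *Cxcr6*, a chemokine receptor of resident cells, 259 and 205 CPM, and *Ccr9*, the receptor that directs T cells to the small intestine, 296 and 350 CPM. *Itgae* had 170 CPM in WT (132 to 215) and 128 CPM in A20ZF7 (104 to 156), against 64.9 and 67.1 CPM in other T cells. *Zfp683*, which encodes the residency factor HOBIT, had 1 UMI in WT and 0 in A20ZF7.

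Surface protein in WT, which the rule did not use, separated CD8 from CD4 only in part. Values are UMIs per 10000 antibody UMIs, and CD8 T cells had a median of 2602 antibody and hashtag UMIs per cell. CD8a was read at 26.3 in CD8 T cells and 18.8 in other T cells, the highest ratio (1.40) of 132 antibodies with at least 5 per 10000 in either population. The ratio was 1.39 in WT mouse 1 and 1.48 in WT mouse 2. CD4 was read at 14.5 and 22.9, the lowest ratio (0.631), with 0.535 and 0.632 in the 2 mice. In single cells, CD8a UMIs exceeded CD4 UMIs in 75.5% of members (70.2% to 80.3%), in 38.2% of other T cells (36.7% to 39.8%) and in 67.8% of stromal barcodes (66.7% to 68.9%). The stromal share is the background of this measure, with a median of 3 CD8a and 2 CD4 UMIs per stromal barcode against 5.5 and 2 per member. WT barcodes just outside the limit, with 1 CD8 UMI, were CD8a-high in 74.0% (70.2% to 77.5%), close to members with exactly 2 CD8 UMIs at 73.7% (67.0% to 79.7%).

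After CD8a, the antibodies with the highest ratios to other T cells were CD45, the common leukocyte antigen, at 1.21, CD90.2 at 1.102, KLRG1 at 1.098, and CD103 and the antibody listed as integrin7 at 1.096 each. After CD4, the lowest were CD31, an adhesion molecule of endothelium and leukocytes, at 0.771, Sca1 at 0.854, CD49f at 0.869 and CD39 at 0.907. The 3 isotype controls, which bind no target, had ratios between 0.984 and 1.003. The antibody listed as a TCR chain was read at 23.3 in members and 23.8 in other T cells, and 2 others are listed as TCR with no chain. The first of these was read at 14.9 and 14.02, against 16.0 in T cells with *Trdc* UMIs, and the second at 166 and 165, against 179. Transcript and protein went the same way in members for KLRG1, read at 49.2 in the 19 cells with a *Klrg1* UMI and 30.9 in the other 275, and for CD103, at 40.4 in the 56 cells with an *Itgae* UMI and 36.5 in the other 238. Antibodies paired with *Itga1*, *Cd69*, *Cd44*, *Ly6c2* and *Cxcr3* had the same order, while those paired with *Cd38* (108.9 with a UMI and 114.9 without) and *Il2rb* (97.06 and 97.54) had the reverse.

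**Figure D2:**
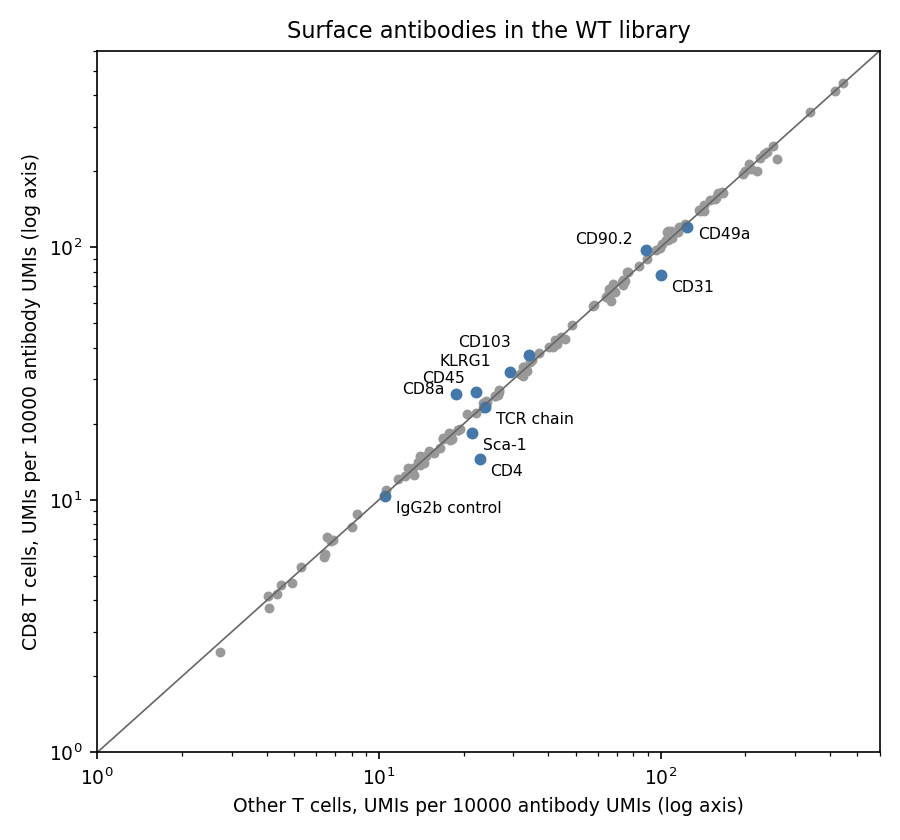
Each point is 1 of 138 surface antibodies in the WT library, by its UMIs per 10000 antibody UMIs in other T cells (x) and CD8 T cells (y), both on log axes; the line marks equal values and blue points are labelled. CD8a lies above the line (26.3 against 18.8) and CD4 below it (14.5 against 22.9), while most antibodies lie on it.

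Members without a *Cd8b1* UMI were described apart from the rest, since cells of the gut can carry CD8αα dimers, though a missing UMI at this depth does not show that a cell lacks the chain. In WT, the 75 cells with *Cd8a* alone had 6171 CPM of *Gzma* (5667 to 6707), the granzyme A gene, and the 219 cells with *Cd8b1* had 1849 CPM (1702 to 2005). *Cd7* had 603 CPM (453 to 786) in the former and 193 CPM (147 to 248) in the latter. *Klrd1*, the CD94 chain of NK receptors, had 324 CPM (217 to 465) and 91.7 CPM (61.4 to 132). *Fcer1g*, a signaling adaptor, had 290 CPM (190 to 425) and 145 CPM (106 to 194), and *Tcrg-C4*, a γ chain constant gene, 223 CPM (136 to 345) and 50.6 CPM (28.9 to 82.1). *Trac* was alike, at 446 CPM (319 to 608) and 392 CPM (326 to 467).

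The same split of A20ZF7 members gave other values. The 107 cells with *Cd8a* alone had 3608 CPM of *Gzma* (3324 to 3909) and the 370 cells with *Cd8b1* had 3135 CPM (2993 to 3283). *Cd7* had 163 CPM (108 to 238) and 142 CPM (113 to 176), *Klrd1* 60.5 CPM (29.0 to 111) and 69.3 CPM (49.5 to 94.3), and *Tcrg-C4* 36.3 CPM (13.3 to 79.1) and 39.8 CPM (25.2 to 59.8). *Fcer1g* had 78.7 CPM (41.9 to 135) and 140 CPM (111 to 174), the opposite order to WT. Of these, *Gzma* had intervals that did not overlap in A20ZF7, with a smaller gap than in WT. *Gzmb* had 792 CPM (619 to 999) and 411 CPM (343 to 488) in WT, and 781 CPM (652 to 928) and 694 CPM (628 to 766) in A20ZF7. *Ccl5* was higher in WT cells with *Cd8a* alone, at 14339 CPM (13566 to 15145) against 10494 CPM (10140 to 10857), and lower in such A20ZF7 cells, at 8565 CPM (8125 to 9023) against 10310 CPM (10050 to 10575). *Gzma* in stromal barcodes was 225 CPM in WT and 1049 CPM in A20ZF7. Whether the gaps differ between genotypes was not tested.

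**Figure D3:**
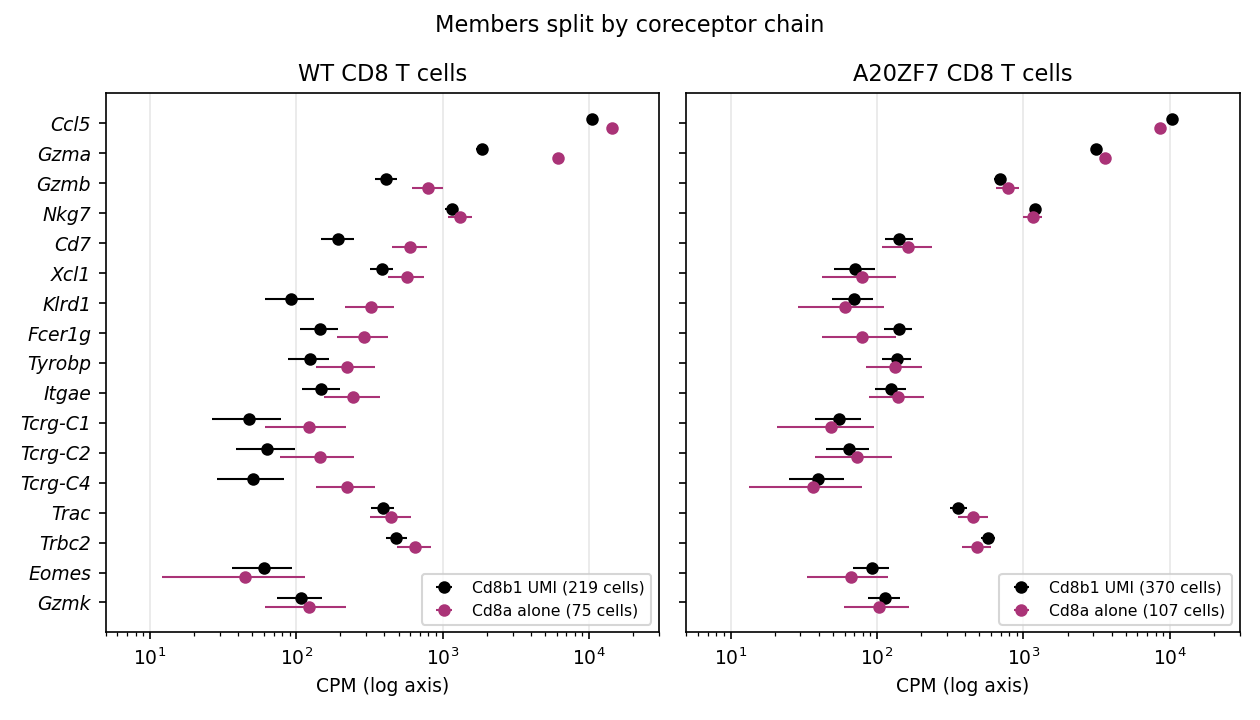
Level of 17 genes (rows) in CPM on a log axis in CD8 T cells with a *Cd8b1* UMI (black) and with *Cd8a* alone (purple), WT left and A20ZF7 right, with 95% Poisson intervals. In WT the purple points lie to the right for *Gzma*, *Cd7*, *Klrd1*, *Tcrg-C4*, *Gzmb* and *Ccl5*; in A20ZF7 most pairs overlap, and for *Ccl5* the purple point lies to the left.

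*Gzmb* was found more often in members with *Gzma* than in those without it. With cells thinned to 500 UMIs, *Gzmb*, the granzyme B gene, was found in 43.2% (34.1% to 52.7%) of the 118 WT members with *Gzma* and in 10.8% (6.63% to 16.3%) of the 176 without it. In A20ZF7 the shares were 36.8% (30.4% to 43.5%) of 223 and 14.2% (10.1% to 19.1%) of 254. The same was not seen for *Gzmk*: *Gzmb* was found in 4 of the 23 WT and 6 of the 30 A20ZF7 members with it, and in 24.4% and 25.1% of those without. *Gzma* was found in 56.5% and 53.3% of members with *Gzmk* and in 38.7% and 46.3% without, and all 4 of these comparisons had intervals that overlapped. *Itga1* was found in 8.07% (4.85% to 12.5%) of A20ZF7 members with *Gzma* and in 1.18% (0.244% to 3.41%) without it, while in WT the shares of 20.3% (13.5% to 28.7%) and 13.1% (8.47% to 19.0%) had intervals that overlapped. All 14 WT and all 21 A20ZF7 members with an *Eomes* UMI after thinning also had *Ccl5*, which 92.9% and 82.6% of all members had.

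Receptor V gene transcripts were sparse. A *Trbv* UMI was found in 74 of 294 WT members, 114 UMIs in all, and in 107 of 477 A20ZF7 members, 170 UMIs in all. *Trbv17* held 19.3% of *Trbv* UMIs in WT members (12.5% to 27.7%), in 17 cells, against 6.05% in WT other T cells (4.60% to 7.78%). *Trbv29* followed with 14.04% (8.24% to 21.8%), against 6.16% in other T cells. In A20ZF7 members *Trbv12-2* led with 12.4% (7.81% to 18.3%), then *Trbv15* with 11.2% and *Trbv3* with 10.6%, and *Trbv17* held 2.94% (0.962% to 6.73%), against 1.28% in A20ZF7 other T cells. The effective number of *Trbv* genes was 10.7 in WT members and 13.7 in A20ZF7 members, against 14.1 and 13.7 in other T cells, which held 926 and 2192 *Trbv* UMIs.

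CD8 T cells made up 1.33% of filtered WT barcodes (1.18% to 1.49%) and 1.29% of filtered A20ZF7 barcodes (1.18% to 1.41%), a ratio of 0.972 (0.841 to 1.12). The direction turned to 1.26 (1.03 to 1.54) with 1000 or more UMIs per barcode. It also turned to 1.115 (0.954 to 1.30) without WT barcodes of both hashtags, and to 1.115 and 1.18 without WT mouse 1 and mouse 2. The settings by hashtag kept the 8968 WT barcodes with neither hashtag, of which 0.178% were members. Leaving out 1 mouse thus did not give the share of the other mouse alone. T cells were taken as barcodes with 2 or more T cell gene UMIs and at most 1 stromal UMI. CD8 T cells made up 237 of 4731 of them in WT, or 5.01% (4.41% to 5.67%). In A20ZF7 they made up 398 of 11904, or 3.34% (3.03% to 3.68%), a ratio of 0.667 (0.570 to 0.781). A lower share among T cells can come from fewer CD8 T cells or from more T cells of other kinds, which these shares cannot tell apart. Barcodes of other cells can also be counted as T cells through background T cell transcripts. In stromal barcodes the T cell receptor complex list had 569 CPM in WT and 1511 CPM in A20ZF7. How far this background enters the share was not tested. Within the WT library, mouse 1 had 119 members among 7000 filtered barcodes, or 1.70% (1.41% to 2.03%), and mouse 2 had 93 of 3693, or 2.52% (2.04% to 3.08%). As a share of T cells mouse 1 had 5.03% (4.08% to 6.14%) and mouse 2 had 6.30% (5.02% to 7.79%). Of WT T cells with neither hashtag, 11 of 756 were members, or 1.46% (0.729% to 2.59%), and of those with both, 6.16% (4.67% to 7.94%). The A20ZF7 library was not split by mouse and keeps all its barcodes, so the shares of single mice are not set against it. A further 66 WT members carried both hashtags and 16 carried neither, of 2426 and 8968 such barcodes.

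Between genotypes, 1665 genes were compared, those with 20 or more UMIs and 100 CPM or more in the genotype where they were higher. Of these, 51 (3.06%) were at least 2-fold higher and 38 (2.28%) at least 2-fold lower in A20ZF7 CD8 T cells, and the median A20ZF7-to-WT ratio was 1.03. With the stromal level taken off, 22 genes were higher, 7 of them among the 51, and 122 lower, 18 of them among the 38. These counts include genes that stromal cells express themselves, and for such genes the level taken off is not background. In this and every other setting the genes compared were picked anew, so its counts are not out of the same 1665 genes. The 10 largest ratios were those of *Il17f*, *Ndufb4*, *Tnfrsf9*, *Ube2c*, *Il17a*, *Pde5a*, *Itgav*, *Hist1h2ap*, *Zc3h7a* and *Srgap3*. The 10 smallest were those of *Apoa1*, *Prap1*, *Apoa4*, *Fabp2*, *Pigr*, *Apoc2*, *Spink1*, *Rbp2*, *Fabp1* and *Reg3b*, which are genes of gut epithelium and not of T cells.

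In members, those epithelial transcripts came mostly from few barcodes of 1 mouse. The 10 genes of the epithelium list summed to 6123 CPM in members of WT mouse 1, 190 CPM in WT mouse 2 and 101 CPM in A20ZF7, and 3 members of mouse 1 held 889 of the 952 epithelial UMIs of all WT members. Stromal barcodes had 1749 CPM in WT and 159 CPM in A20ZF7. With members of 3 or more epithelial UMIs left out, 51 genes were higher and 28 lower.

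**Figure D4:**
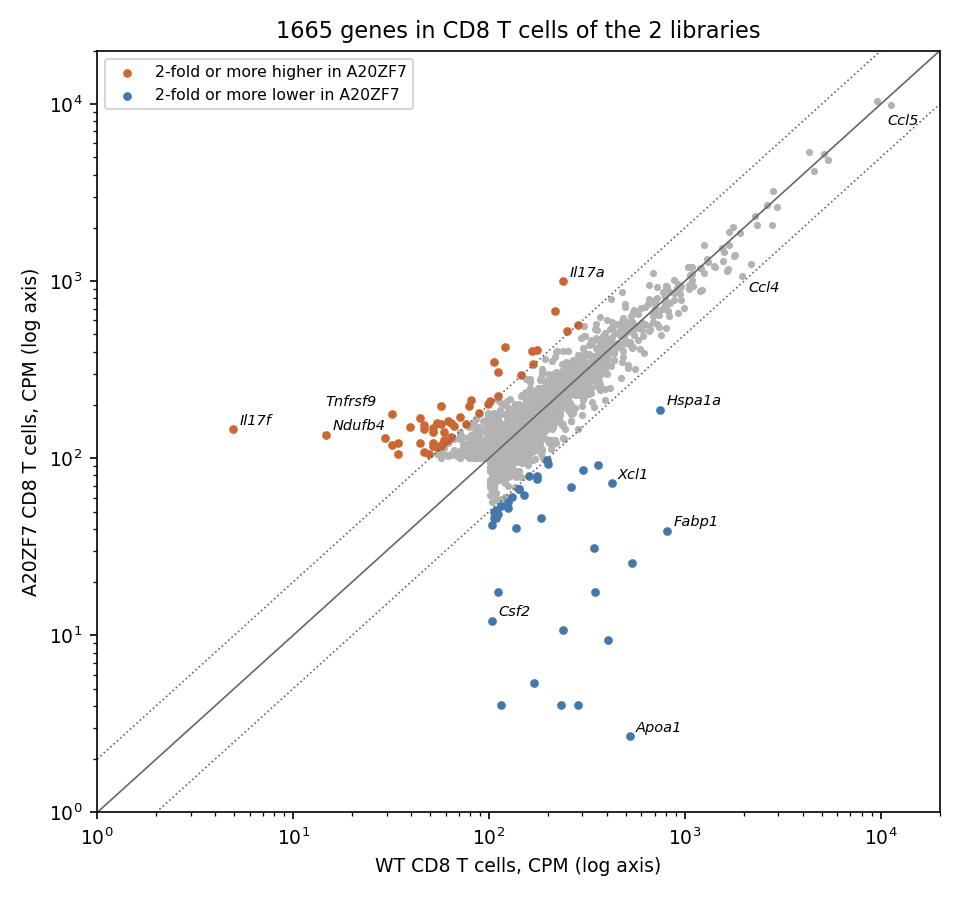
Each point is 1 of the 1665 genes compared, by its CPM in WT (x) and A20ZF7 (y) CD8 T cells, both on log axes; the solid line marks equal levels and dotted lines 2-fold. Orange points (51) are higher and blue points (38) lower in A20ZF7; *Apoa1* and *Fabp1* are epithelial genes, and *Xcl1*, *Csf2* and *Hspa1a* lie apart from them below the line.

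Effector chemokines and cytokines were lower in A20ZF7. The list of 12 genes had 14587 CPM in WT (14218 to 14963) and 11591 CPM in A20ZF7 (11348 to 11839). Its ratio was 0.795 (0.769 to 0.822), with 3 of its 7 compared genes at least 2-fold lower and none higher. *Ccl5* alone held 11343 and 9922 CPM of the list. The list's ratio was 0.928 (0.888 to 0.970) with 1000 or more UMIs per barcode. It was 0.879 (0.846 to 0.913) with a *Cd8b1* UMI required and 0.685 (0.647 to 0.725) with 3 or more CD8 UMIs. *Xcl1* (chr1:164931644-164935527, minus strand), the lymphotactin gene whose product draws XCR1-bearing dendritic cells, had 348 CPM in WT mouse 1, 563 CPM in WT mouse 2 and 72.7 CPM in A20ZF7 (54.6 to 94.9). The A20ZF7 pool was thus under both WT mice, with a ratio to all WT members of 0.172 (0.124 to 0.234). *Xcl1* was found in 23.5% of WT and 7.13% of A20ZF7 members, or 14.97% and 2.94% after thinning, and its highest WT cell held 14 of 172 UMIs. In stromal barcodes it had 51.6 and 17.7 CPM, and in other T cells 267 and 36.9 CPM, so that both populations went the same way.

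*Csf2*, the GM-CSF gene, had 80.3 CPM in WT mouse 1, 39.7 CPM in WT mouse 2 and 12.1 CPM in A20ZF7 (5.54 to 23.0), a ratio of 0.117 (0.0501 to 0.244). The ratio is to all WT members, at 103 CPM (74.6 to 140), which is above both mice, since they held 12 and 5 of the 42 UMIs and members with both hashtags or neither held the rest. It was 0.207 (0.0811 to 0.490) without WT barcodes of both hashtags and 0.0474 (0.00541 to 0.192) with 3 or more CD8 UMIs. This value rests on few cells, as 5 WT members held 30 of the 42 UMIs. The *Csf2* ratio was lower still with the stromal level taken off, at a value given with the processing below. *Ifng*, the interferon-γ gene, had 93.7 and 167 CPM in the WT mice and 67.3 CPM in A20ZF7 (50.0 to 88.7), a ratio of 0.471 (0.316 to 0.6999) and of 0.296 with the stromal level taken off. It was short of 2-fold at 0.533 with a *Cd8b1* UMI required, 0.542 without WT barcodes of both hashtags, 0.509 without WT mouse 2 and 0.512 with *Cd4*-UMI members left out. *Ccl4* (chr11:83662584-83664683, plus strand) had 1767 and 2205 CPM in the WT mice and 1074 CPM in A20ZF7 (1001 to 1152), a ratio of 0.547 (0.495 to 0.604), or 0.487 with the stromal level taken off. *Ccl3* had a ratio of 0.635 (0.460 to 0.879). *Ccl5* was nearer to equal at 0.875 (0.843 to 0.908). *Ccl4* in other T cells was also lower in A20ZF7, at 311 against 681 CPM. With barcodes of at least 1000 UMIs the *Ccl5* ratio was 1.06, the opposite direction.

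Cytotoxic granule genes were close to level. Their list of 12 genes had 6811 CPM in WT (6559 to 7069) and 7349 CPM in A20ZF7 (7156 to 7547), a ratio of 1.08 (1.03 to 1.13), and none of its 9 compared genes passed 2-fold either way. The list had 6184 CPM (5791 to 6595) in WT mouse 1 and 7463 CPM (6993 to 7955) in WT mouse 2, so the A20ZF7 value lay between the mice. *Gzma* (chr13:113093825-113100981, minus strand) had 2617 CPM in WT mouse 1, 2918 CPM in WT mouse 2 and 3240 CPM in A20ZF7 (3112 to 3373). *Gzmb* had 502 and 500 CPM in the WT mice and 714 CPM in A20ZF7 (654 to 777), a ratio of 1.44 (1.22 to 1.70). *Nkg7* had 1190 and 1191 CPM in the 2 genotypes, and *Srgn*, the granule proteoglycan, 1547 and 1539 CPM. *Prf1*, the perforin gene, had 49.3 CPM (30.1 to 76.1) and 43.1 CPM (29.5 to 60.8). *Ctsw*, a cathepsin of cytotoxic cells, was the list's most changed gene with *Lamp1*, at 298 CPM (247 to 356) and 176 CPM (148 to 209). With the stromal level of each library taken off, the ratio of *Gzma* was 0.850 and that of the list 0.828, so the direction of both turned, though the list holds *Lamp1*, which had more in stromal barcodes (298 and 221 CPM) than in members (101 and 68.7 CPM).

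Tissue residency genes had 5397 CPM in WT (5173 to 5628) and 4552 CPM in A20ZF7 (4400 to 4708), a ratio of 0.843 (0.799 to 0.890) and of 0.559 with the stromal level taken off, with 1 of 13 compared genes at least 2-fold lower. That gene was *Itga1*, with 268 CPM in WT mouse 1, 270 CPM in WT mouse 2 and 68.7 CPM in A20ZF7 (51.1 to 90.3), a ratio of 0.263 (0.184 to 0.371). Stromal barcodes held 148 and 93.4 CPM of *Itga1*, in A20ZF7 more than CD8 T cells did, and other T cells had 125 and 39.7 CPM. *Itgae* had a ratio of 0.753 (0.546 to 1.04) and *Cd69* of 0.984 (0.812 to 1.20). The list's most abundant gene, *Rgs1*, had 1773 and 1380 CPM, *Nr4a1* 473 and 285 CPM, and *Bhlhe40*, a transcription factor, 480 and 595 CPM.

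NK receptor genes had 665 CPM in WT (588 to 749) and 427 CPM in A20ZF7 (381 to 476), a ratio of 0.642 (0.544 to 0.758). Their spread between the WT mice was wider than that, with 375 CPM (283 to 487) in mouse 1 and 991 CPM (825 to 1181) in mouse 2. The A20ZF7 value lay between the mice. *Klrd1* had 87.0 and 206 CPM in the mice and 67.3 CPM in A20ZF7, *Fcer1g* 53.5 and 278 CPM against 126.5 CPM, and *Tyrobp* 33.5 and 254 CPM against 136 CPM. Only *Klrd1*, of 3 genes compared, was at least 2-fold lower, and it was short of 2-fold at a ratio of 0.756 with a *Cd8b1* UMI required, 0.690 with 3 or more CD8 UMIs, 0.513 with 1000 or more UMIs per barcode, 0.589 without WT mouse 2 and 0.574 with *Cd4*-UMI members left out. *Klrk1*, the NKG2D gene, had 56.7 and 26.9 CPM in the genotypes. With 3 or more CD8 UMIs required, the list's ratio was 1.04. Other T cells had 474 CPM of the list in WT and 220 CPM in A20ZF7.

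Checkpoint and costimulatory genes were higher in A20ZF7, at 1842 CPM in WT (1713 to 1979) and 2581 CPM in A20ZF7 (2467 to 2699), a ratio of 1.40 (1.29 to 1.53). Of 8 genes compared, 2 were at least 2-fold higher and 1, *Cd160*, lower. The *Cd160* ratio of 0.496 was short of 2-fold at 0.687 with 1000 or more UMIs, 0.501 with a *Cd8b1* UMI required, 0.536 and 0.517 without WT mouse 1 and mouse 2, and 0.532 with *Cd4*-UMI members left out. *Tnfrsf9* (chr4:150914562-150946102, plus strand), which encodes the costimulatory receptor 4-1BB, had 40.2 CPM in WT mouse 1, 15.9 CPM in WT mouse 2 and 178 CPM in A20ZF7 (149 to 211), a ratio of 5.55 (3.14 to 10.7), or 10.13 (4.51 to 28.2) with a *Cd8b1* UMI required. With 1000 or more UMIs per barcode the *Tnfrsf9* ratio was 3.81 (2.13 to 7.40). *Tnfrsf9* was found in 3.40% of WT and 18.2% of A20ZF7 members, or 1.02% and 9.43% after thinning. *Ctla4*, an inhibitory receptor, had 301 and 198 CPM in the WT mice and 568 CPM in A20ZF7 (515 to 625), a ratio of 2.01 (1.63 to 2.49). This is at the 2-fold limit, and *Ctla4* was short of it at 1.91 with 1000 or more UMIs, 1.994 with a *Cd8b1* UMI required, 1.98 with all IDs, 1.77 without WT mouse 2, 1.994 over the total without mitochondrial, ribosomal protein and immunoglobulin genes and 1.97 without members of 3 or more epithelial UMIs. *Tnfrsf4*, the OX40 gene, had 6 UMIs in WT (14.8 CPM, 5.42 to 32.2) and 67 UMIs in A20ZF7 (69.9 to 114.5 CPM), a ratio of 6.10 that was 11.6 without WT mouse 1, and *Tox*, a factor of chronically stimulated T cells, 296 and 478 CPM. Stromal barcodes of A20ZF7 were higher as well, with *Ctla4* at 75.6 and 393 CPM, *Tnfrsf9* at 12.6 and 84.0 CPM, and the list at 593 and 1568 CPM. With stromal levels taken off, the ratio of *Ctla4* was 0.843 and that of the list 0.795, the opposite direction, while that of *Tnfrsf9* was 4.84. Of the list, *Entpd1* had more in stromal barcodes than in members, at 89.9 and 55.6 CPM against 36.9 and 33.7 CPM.

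Type 17 genes, which mark cells that make IL-17, had 1431 CPM in WT (1317 to 1552) and 3049 CPM in A20ZF7 (2925 to 3178), a ratio of 2.13 (1.94 to 2.34), with 4 of 7 compared genes at least 2-fold higher. *Il17a* (chr1:20730905-20734496, plus strand) had 207.5 CPM in WT mouse 1, 325 CPM in WT mouse 2 and 1003 CPM in A20ZF7 (932 to 1078), a ratio of 4.20 (3.39 to 5.24). The ratio was 7.91 (5.80 to 11.04) with a *Cd8b1* UMI required and 7.15 (4.68 to 11.46) with 3 or more CD8 UMIs. In WT it was found in 19 members, of which 5 held 62 of the 97 UMIs, and in A20ZF7 in 159 members, of which 5 held 87 of 745. Stromal barcodes had 55.2 and 721 CPM and other T cells 307.5 and 2047 CPM of it, so the A20ZF7 background was near to the level in members. Taking the stromal level off left a ratio of 1.54 for *Il17a* and 1.58 for the list.

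*Il17f* had 2 UMIs in 1 WT member and 109 UMIs in 51 A20ZF7 members, with a ratio of 29.8 (8.05 to 249) that was 18.8 without WT mouse 1 and 13.9 with the stromal level taken off. Stromal barcodes had 1.67 and 101 CPM of it. *Il22*, which has a near-identical copy in the genome, had 187 CPM (147.5 to 234) and 319 CPM (280 to 362), and 5 WT members held 62 of its 76 WT UMIs. *Il23r*, a receptor chain for IL-23, had 81.3 CPM (56.0 to 114) and 214 CPM (182 to 250). *Maf*, a transcription factor, had 165 CPM (128 to 210) and 401 CPM (357 to 449), a ratio of 2.43 (1.86 to 3.22) that was short of 2-fold, at 1.88 (1.41 to 2.55), with 1000 or more UMIs. *Ccl20*, the ligand of CCR6, had 0 UMIs in WT and 40 in A20ZF7, or at least 7.29-fold higher against a floor of 3 UMIs, and 5 A20ZF7 members held 22 of the 40. *Ccr6* had 12.3 and 26.9 CPM, and *Il1r1* 71.4 and 102 CPM. *Rora* had 650 and 747 CPM.

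*Cd4* was also higher in A20ZF7 members. It was found in 9 WT members, or 3.06% (1.41% to 5.73%), and in 53 A20ZF7 members, or 11.1% (8.43% to 14.3%), with 10 UMIs (11.8 to 45.3 CPM) and 67 UMIs (69.9 to 114.5 CPM). After thinning, *Cd4* was found in 1.36% and 3.77% of members, against 0.501% and 2.88% of stromal barcodes and 5.34% and 8.84% of other T cells. The CD4 T cell list had 204 and 269 CPM in members, led by *Cd40lg* (113 and 84.8 CPM), with *Il2ra* at 46.8 and 76.7 CPM, and 604 and 528 CPM in other T cells. With members that had a *Cd4* UMI left out, 47 genes were higher and 35 lower in A20ZF7. Of the 47 and 35, 42 and 33 were among the 51 and 38 of all members.

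NF-κB response genes had 3495 CPM in WT (3316 to 3682) and 4087 CPM in A20ZF7 (3943 to 4235), a ratio of 1.17 (1.098 to 1.25), and none of 11 compared genes passed 2-fold. *Tnfaip3*, the A20 gene itself, had 1051 and 1316 CPM in the WT mice and 1107 CPM in A20ZF7 (1032 to 1185), which lay between the mice. The mutated sites are not visible in counts per gene, so this value does not check the genotype. *Nfkb1*, the p105 subunit gene, had 200.8 and 293 CPM in the WT mice and 561 CPM in A20ZF7 (509 to 618), a ratio of 1.84 (1.501 to 2.26) to all WT members, whose 305 CPM (254 to 364) lay above both mice. It passed 2-fold at 2.36 (1.82 to 3.09) without WT barcodes of both hashtags and 2.01 (1.59 to 2.57) with a *Cd8b1* UMI required. *Nfkbia*, the IκBα gene, had 542 and 660 CPM, *Cd83* 24.6 and 67.3 CPM, and *Bcl3*, an IκB family member, 3 UMIs in WT and 35 in A20ZF7. The last 2 were under 100 CPM and not among the genes compared. Stromal barcodes had 1476 and 2744 CPM of the list, whose genes stromal cells express as well, so its background in members could not be measured this way. The list's direction turned with that level taken off, and *Tnfaip3* had a lower ratio. Both values are given with the processing below.

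Proliferation genes had 1850 CPM in WT (1720 to 1987) and 3385 CPM in A20ZF7 (3253 to 3519), a ratio of 1.83 (1.69 to 1.99), with 3 of 8 compared genes at least 2-fold higher and none lower. *Ube2c*, a ubiquitin carrier of mitosis, had 26.8 and 47.6 CPM in the WT mice and 131 CPM in A20ZF7 (106 to 159), and 5 WT members held 11 of its 12 WT UMIs. *Top2a* had 66.5 CPM (43.8 to 96.8) and 152 CPM (125 to 183), *Stmn1* 61.6 and 162 CPM, *Hmgb2*, a chromatin protein, 687 and 1119 CPM, and *H2afz*, a histone variant, 475 and 866 CPM. *Cdk1* had 3 UMIs in WT and 23 in A20ZF7. *Hist1h2ap*, a replication histone gene among the largest ratios, had 32.0 and 118 CPM. In WT mouse 1 the list had 1740 CPM (1535 to 1965) and in WT mouse 2 2340 CPM (2080 to 2622), both under A20ZF7. Other T cells had 1742 and 3233 CPM of it. Stromal barcodes had 740 and 1491 CPM, a ratio of 2.01, so the background was higher in A20ZF7 too.

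Stress and immediate early genes were lower in A20ZF7, with 10119 CPM in WT (9811 to 10433) and 6882 CPM in A20ZF7 (6695 to 7073), a ratio of 0.680 (0.653 to 0.709), and 3 of 13 genes at least 2-fold lower. With the stromal level taken off the ratio was 0.249, though stromal cells express these genes as well. All 3 are heat shock genes. *Hspa1a*, an HSP70 gene, had 495 CPM in WT mouse 1, 769 CPM in WT mouse 2 and 188 CPM in A20ZF7 (159 to 222), a ratio of 0.253 (0.205 to 0.310). *Hspa1b*, a near-identical copy whose reads cannot be told apart with certainty, had 303 and 86.2 CPM, and *Dnajb1*, an HSP40 gene, 360 and 91.5 CPM. *Junb* had 2781 and 2071 CPM and *Jund* 1414 and 1222 CPM. Other T cells had 731 and 248 CPM of *Hspa1a*, and stromal barcodes 300.0 and 265.5 CPM. The A20ZF7 level in members was thus under that in stromal barcodes.

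Among the other lists, naive and central memory genes had 1557 CPM in WT and 1675 CPM in A20ZF7, a ratio of 1.08 (0.977 to 1.19) whose interval spans equal levels. Stromal barcodes had 1368 and 1687 CPM of the list, in A20ZF7 about as much as members. Its direction turned with the stromal level taken off, to a value given with the processing below. Its 1 gene past 2-fold was *Ly6c2*, which encodes a surface antigen of memory CD8 T cells, with 13.4 CPM in WT mouse 1, 103 CPM in WT mouse 2 and 124 CPM in A20ZF7 (99.9 to 152), so mouse 2 was near the A20ZF7 value. *Klf2*, a factor that maintains *S1pr1* and tissue exit, had 254 and 401 CPM, *Klf3* 239 and 131 CPM, and *Il7r*, the IL-7 receptor, 453 and 448 CPM. Effector memory factors had a ratio of 1.04 (0.969 to 1.12), with *Id2* at 525 and 588 CPM, *Stat4* at 544 and 425 CPM, *Il18rap* at 44.3 and 79.4 CPM and *Tbx21*, the T-bet gene, at 83.8 CPM (58.0 to 117) and 44.4 CPM (30.6 to 62.4). No gene of this list passed 2-fold among 9 compared.

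MHC class I presentation genes were level at 6818 and 6703 CPM, a ratio of 0.983 (0.938 to 1.03), with *B2m* at 2618 and 2691 CPM and *H2-K1* at 1916 and 1870 CPM, while *Tap1*, a peptide transporter, had 86.2 CPM (60.1 to 120) and 166 CPM (138 to 198). *Tapbp*, its partner, had 108 and 144 CPM. Interferon response genes had a ratio of 1.13 (1.04 to 1.23), with *Psmb8* at 300.5 and 335 CPM, *Iigp1* at 22.2 and 57.9 CPM and *Gbp7* at 44.3 and 86.2 CPM. Glycolysis and growth genes had a ratio of 1.22 (1.104 to 1.34), with *Gapdh* at 527 and 584 CPM, *Ldha* at 219 and 308 CPM, *Tpi1* at 61.6 and 102 CPM and *Myc* at 49.3 and 24.2 CPM. None of the compared genes of these 3 lists passed 2-fold. Stromal cells express MHC class I and interferon response genes as well. Stromal barcodes of A20ZF7 had more than members, with 8041 CPM of the former list and 3105 CPM of the latter. The interferon list turned its direction with the stromal level taken off, to a value given with the processing below. The T cell receptor complex list had a ratio of 0.954 (0.898 to 1.01), with *Cd3e* at 736 and 641 CPM, *Cd3d* at 569 and 555 CPM, *Cd3g* at 576 and 464.5 CPM and *Cd247* at 140 and 198 CPM. The rule required UMIs of some of these genes and of CD8, so their levels are a description.

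**Figure D5:**
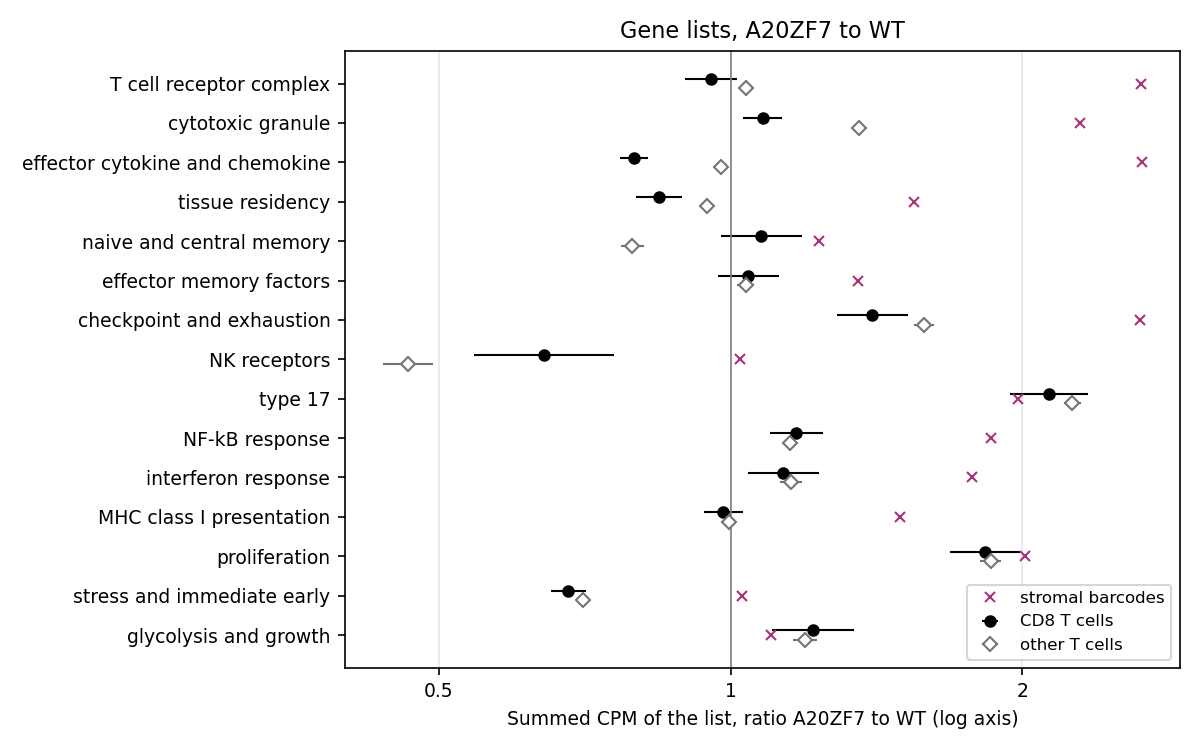
A20ZF7-to-WT ratio of the summed CPM of 15 gene lists (rows) on a log axis, in CD8 T cells (black, 95% interval), other T cells (open diamonds, 95% interval) and stromal barcodes (crosses). Type 17 (2.13) and proliferation (1.83) lie highest and NK receptors (0.642) and stress genes (0.680) lowest in CD8 T cells; stromal crosses lie to the right of 1 for every list drawn.

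The other genes with the largest ratios had mixed roles. *Itgav*, an integrin chain that activates TGF-β, had 26.8 and 47.6 CPM in the WT mice and 168 CPM in A20ZF7 (140 to 200.5). *Pde5a*, a phosphodiesterase, had 40.2 and 39.7 CPM against 151 CPM, and *Srgap3* 60.2 and 23.8 CPM against 121 CPM. *Ndufb4*, a gene of respiratory complex I, had 13.4 and 23.8 CPM in the mice and 136 CPM in A20ZF7, and stromal barcodes had 25.6 and 190 CPM. *Zc3h7a* had 87.0 and 143 CPM against 427 CPM, and stromal barcodes had 70.7 and 838 CPM. These last genes, *Ndufb4* and *Zc3h7a*, were thus higher in stromal barcodes of the A20ZF7 library too. The libraries were not counted with the same list of genes, with 33696 gene IDs listed for WT and 32285 for A20ZF7. Whether this changed the counts of these genes was not tested.

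Markers of other cells stayed low except for those of B lineage and, in WT mouse 1, epithelium. B and plasma cell genes had 16013 CPM in WT members and 11691 CPM in A20ZF7 members, led by *Igha* (8072 and 6020 CPM), which was found in 37.4% and 52.2% of members and had 3802 and 4535 CPM in stromal barcodes. *Jchain* had 2564 and 1535 CPM, *Igkc* 5177 and 3934 CPM and *Ighm* 59.1 and 84.8 CPM, while *Ms4a1*, which defines B cells, was at 0 in both. The list had 27579 CPM in WT mouse 1 and 11095 CPM in WT mouse 2. NK and innate lymphoid genes had 589 and 644 CPM, with 1 of 4 genes higher, *Areg*, the amphiregulin gene, at 106 and 349 CPM (stromal 70.7 and 254 CPM), and 1 lower, *Klrb1b*, at 103 and 41.7 CPM, while *Gata3* had 207 and 113 CPM. γδ T cell genes had 323 and 249 CPM, led by *Tcrg-C4* (88.7 and 39.0 CPM) and *Tcrg-C2* (81.3 and 66.0 CPM), with *Trdc* at 0 by the rule. Macrophage and dendritic cell genes had 108 and 175 CPM, with *Lyz2* at 14.8 and 55.2 CPM and *Itgax*, which intraepithelial T cells also express, at 44.3 and 43.1 CPM. Mast cell genes had 0 UMIs in WT and 21.5 CPM in A20ZF7 (12.3 to 35.0), with *Cpa3* at 8 UMIs and *Mcpt1* at 3. Stromal and endothelial genes had 384 and 339 CPM against 15140 and 11788 CPM in stromal barcodes, led by *Acta2* (195 and 129 CPM), with *Pecam1* at 86.2 and 106 CPM and *Dcn*, which the rule limits, at 19.7 and 28.3 CPM. The part of these cells in the differences between genotypes was not tested.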

How the data were processed

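Single-cell RNA-Seq used a 5′ kit (v1.1). The authors deposited UMI counts per gene and barcode with no filter on cells. They name Cell Ranger 7.1, Seurat 4.3 and mm10, and per the file headers the gene expression counts were made with Cell Ranger 8.0.0 and the antibody counts with 7.1.0. Genes were matched by ID, and 31950 IDs were shared. Those listed for WT alone (1746) or A20ZF7 alone (335) were left out. The gene lists thus differed between the libraries, and whether this changed the counts of shared genes was not tested. Members, the 24 gene lists (260 genes) and tests were chosen with earlier results of these data known.

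UMIs were summed over members and divided by all their UMIs (Python 3.11.15, numpy 2.4.6, scipy 1.17.1, pandas 2.3.3). CPM have exact Poisson, shares exact binomial, CPM ratios exact conditional and share ratios log-method intervals. Intervals and floors cover counting error only. No differential test was run, since cells are not replicates. WT mice were assigned with HTODemux (Seurat 5.3.0, R 4.3.3, quantile 0.99). For shares of cells with a UMI, cells were thinned to 500 UMIs, with no member left out. Doublets were left in; an alternative removed Scrublet scores above 0.25 (scanpy 1.11.5).

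Genes named are, of each list, the 2 most abundant and the 2 most changed with 20 or more UMIs, all CD8 marker and type 17 genes, the 10 largest and 10 smallest ratios at 100 CPM and 20 UMIs (with genes of mitochondria, ribosomal proteins, antibodies, T cell receptor segments and sex chromosomes, and unnamed Gm and Rik genes, left out), the 10 highest over other T cells, and antibodies to CD8a, CD4 and TCR with the 5 highest and 5 lowest ratios. Other genes were named after their values were seen. Some genes that the rule names are not reported here. In simulated data, 200 of 1759 compared genes were changed. All 3-fold and 4-fold genes were recovered at 2-fold, 0.128% of unchanged genes passed, and 94.4% of intervals held the true ratio. These rates describe the simulated counts and are not error rates for the genes called here. In the real data, most WT UMIs of some genes came from few members, as given above. Alternatives changed the depth and CD8 limits, the gene IDs, the doublets, the WT mice, the total, the free RNA and the minimum level. Added after seeing the data were members without epithelial or *Cd4* UMIs.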

Additional observations from a re-analysis of the deposited data

How the results depend on the processing

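Results are A20ZF7-to-WT ratios or counts of genes past 2-fold. Taking off the stromal level of each library, gene by gene with remainders below 0 set to 0, turned the direction of the cytotoxic granule list (0.828), the checkpoint list (0.795), *Gzma* (0.850) and *Ctla4* (0.843). The setting also gave values under 1 for the NF-κB list (0.662), the interferon list (0.465) and the naive and central memory list (0.803), and 0.559 for the residency list, 0.249 for the stress list, 0.509 for *Tnfaip3*, 0.0138 for *Csf2* and 22 genes higher and 122 lower. Each of these lists holds genes with more in stromal barcodes than in members, and for genes that stromal cells express themselves the values say nothing about CD8 T cells. With at least 1000 UMIs per barcode, the share of filtered barcodes turned from 0.972 to 1.26 and *Ccl5* turned to 1.06, while the cytotoxic list was 1.18 and the NF-κB list 1.096. With at least 3 CD8 UMIs, the residency list was 0.905, NK receptors turned to 1.04 and 88 of 1476 genes compared were higher. With a *Cd8b1* UMI required, the cytotoxic list was 1.27, the residency list 0.891 and the naive list 0.953, which is also under 1. Removing WT barcodes with both hashtags gave 1.28 for the NF-κB list. A total without mitochondrial, ribosomal protein and immunoglobulin genes gave 84 higher and 60 lower genes. No CPM minimum, which lets in genes of lower level, gave 314 and 105. The genes compared were picked anew in each setting, so these counts are not out of the same 1665 genes. The causes were not tested.

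Leaving out WT mouse 1 or 2 gave 1.12 to 1.18 for the share of filtered barcodes, 0.669 to 0.736 for the share of T cells, 1.02 to 1.13 for the cytotoxic list, 0.797 to 0.857 for the residency list, 1.01 to 1.07 for the naive list, 1.06 to 1.19 for the NF-κB list, 51 to 68 genes higher and 42 to 43 lower. These settings kept the WT barcodes with both hashtags or neither. The genes past 2-fold changed more than their counts did. Without mouse 1, 38 of the 51 higher and 22 of the 43 lower genes were among those called with all WT members. Without mouse 2, 45 of the 68 higher and 31 of the 42 lower genes were. Removing Scrublet scores above 0.25 took out no member. No paired analysis was possible because each genotype is 1 library and no test between them was run. Low depth, with most members at exactly 2 CD8 UMIs, limits who is a member.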
